A study of Mus musculus with 8 samples.

Results

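The genes described here are 35 genes of the complement system, with the collectins and ficolins that feed into it, listed by name. A probe could be named for 34 of the 35, and 32 were well above background on at least 1 of 8 mouse microarrays, out of 20144 genes with a named probe and 16519 above background. C7 is not analysed here, and Fcnb and Cfd were not well above background on any array. C1s is listed under its current symbol, C1s1.

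Messenger RNA was measured on 1-colour Agilent arrays. Each group has a single array without a replicate, and it is this number of arrays that limits how precise the values are. Cells of 5 groups came from livers of fetuses at embryonic stages E11.5, then E13.5, then E14.5 and finally E17.5, and of newborns at postnatal day 1 (P1), digested with collagenase and sorted as CD45-negative, Ter119-negative and p75NTR-positive. That sort takes cells with the nerve growth factor receptor p75NTR, a surface marker of hepatic stellate cells. It selects against leukocytes and erythroid cells by CD45 and Ter119, but markers of both were still detected, as given below. The sixth liver group was adult hepatic stellate cells (adult HSC), sorted as vitamin A-positive, so that age and the kind of sort cannot be told apart on that array. The non-liver groups were cultured fibroblasts of embryonic skin (MEF) and mesenchymal stem cells purified from bone marrow (MSC). No transgene, deletion or treatment is named in the labels for any group, and the strain and whether animals were pooled are not given in the sources used here.

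Complement is a cascade of plasma proteases and the proteins they cut. The lectin route starts when collectins or ficolins bind sugars and activate MASP proteases, the classical route starts when C1q binds antibody and activates C1r and C1s, and the alternative route turns over on C3 itself with factors B and D. All routes cleave C3 and then C5, the start of the terminal complex that opens membranes. Hepatocytes are known as the main source of most plasma complement proteins, macrophages as the main source of C1q, and hepatic stellate cells as a source of the collectins Colec10 and Colec11.

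A level below is the log2 of the spot signal relative to the array's own 75th percentile, so 0 is the 75th percentile and a step of 1 is a factor of 2. Levels of different genes come from different probes and are not set against each other. Where 5 values of a gene follow each other, they stand in the order of the stages, E11.5 first and P1 last. A fold given as at least a value takes an undetected level at the array's detection limit, and this bound holds for the processed signal only. Normexp, a background correction that adds an offset, shrinks folds against dim arrays, and its log2 differences are given beside the folds it moves most. In sorted bulk cells, fewer cells of a type and less RNA per cell cannot be told apart.

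The arrays carried 43020 non-control spots each, of which 58.8% to 64.5% were well above background and 0 were saturated. The E11.5 array stood apart in the slope of its spike-in controls, at 0.849 against 0.922 to 0.933 on the other arrays. Slide and group are partly tied, since E11.5 to E17.5 lay on slide 1 and P1, adult HSC, MEF and MSC on slide 2. Ngfr, the gene of the sort, had levels of 4.97, 3.24, 4.75, 4.83 and 4.02 over the stages, 6.42 in adult HSC, 1.40 in MEF and -5.73 in MSC. The median of 12 stellate cell markers was -0.04 to 3.19 over the stages and 4.88 in adult HSC, against -3.62 in MEF and -6.09 in MSC. Markers of other cells were present too. Of 15 hepatocyte markers 12 to 14 were well above background on each liver array, and their median level was -2.90, 3.66, 6.0, 1.89 and 0.78 over the stages and -3.04 in adult HSC, with Alb, the gene of albumin, at 7.19 on the E14.5 array. The log2 of the summed hepatocyte marker level ran from 3.46 to 10.5 on the liver arrays, against 0.74 in MEF and 0.27 in MSC. Of 15 leukocyte and Kupffer cell markers 3 to 10 were well above background on the liver arrays, against 13 in MEF and 6 in MSC. Their log2 summed level was 1.69 to 3.57 on the liver arrays, against 4.78 in MEF and 2.59 in MSC. Most of that sum on the liver arrays came from Itgam, at 1.32 to 3.26 there. Ptprc, the gene of CD45, was not well above background on any liver array, and neither were Lyz2 and Spi1. Timd4, a marker of resident macrophages, was not well above background on any array, and Clec4f, which marks Kupffer cells, only in adult HSC, at -3.04. Of 12 erythroid markers 10 to 12 were well above background on the stage arrays, against 5 in adult HSC, 6 in MEF and 5 in MSC. Their log2 summed level was 4.58, 5.53, 5.83, 7.81 and 4.39 over the stages, 4.76 in adult HSC, 0.08 in MEF and 1.45 in MSC. Of 12 endothelial markers 10 to 12 were well above background on the liver arrays, against 6 in MEF and 6 in MSC.

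**Figure D1:**
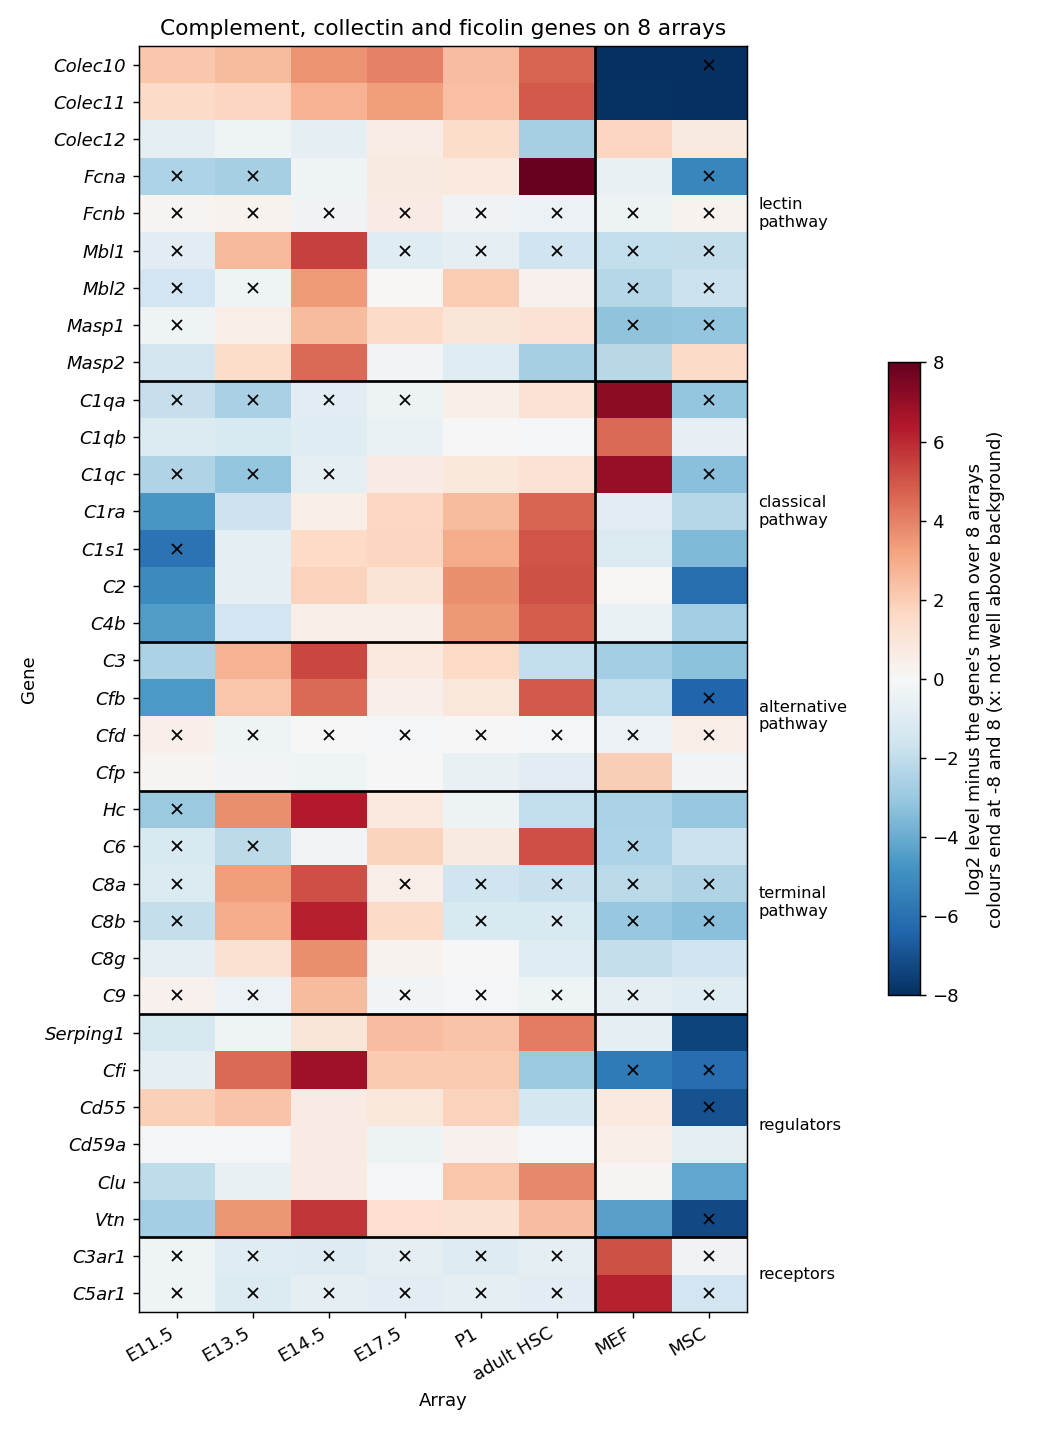
Level of each measured gene on each array, arrays across and genes down by role, shown as the log2 level minus the gene's mean over 8 arrays with colours ending at -8 and 8, and with a cross where the probe was not well above background. The terminal genes other than C6, with Vtn, Cfi, C3 and Mbl1 stand highest on the E14.5 array, C1ra, C1s1, C2 and C4b on the adult HSC array, and the C1q genes and both receptors on the MEF array.

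The promoters of 4 genes with their highest level of the 5 stages at E14.5 are shown because they hold the motif below, and their messages, described further below, share that stage. Each is the stretch of 250 bases before the gene's start from RefSeq (GRCm38.p6), 5' to 3' along the gene, with a half-site of the hepatocyte factor HNF1 (letters GTTAAT, searched on both strands, where the reverse reads ATTAAC) in capitals.
Hc, chr2:35061413-35061662, minus strand: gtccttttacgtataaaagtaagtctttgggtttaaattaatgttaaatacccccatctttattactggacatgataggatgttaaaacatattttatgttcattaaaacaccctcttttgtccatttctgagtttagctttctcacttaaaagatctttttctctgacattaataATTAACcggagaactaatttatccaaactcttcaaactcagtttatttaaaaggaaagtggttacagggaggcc
C8a, chr4:104876399-104876648, minus strand: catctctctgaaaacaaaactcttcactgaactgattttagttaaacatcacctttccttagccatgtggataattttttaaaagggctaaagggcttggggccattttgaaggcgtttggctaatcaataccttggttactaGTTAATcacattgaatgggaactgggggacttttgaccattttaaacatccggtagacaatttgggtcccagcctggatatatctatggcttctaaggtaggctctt
C8b, chr4:104766067-104766316, plus strand: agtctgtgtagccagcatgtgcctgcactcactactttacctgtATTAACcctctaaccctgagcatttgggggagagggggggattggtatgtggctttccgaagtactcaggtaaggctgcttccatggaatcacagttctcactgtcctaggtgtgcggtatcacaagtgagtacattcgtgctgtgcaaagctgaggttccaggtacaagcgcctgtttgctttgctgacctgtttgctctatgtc
Vtn, chr11:78498870-78499119, plus strand: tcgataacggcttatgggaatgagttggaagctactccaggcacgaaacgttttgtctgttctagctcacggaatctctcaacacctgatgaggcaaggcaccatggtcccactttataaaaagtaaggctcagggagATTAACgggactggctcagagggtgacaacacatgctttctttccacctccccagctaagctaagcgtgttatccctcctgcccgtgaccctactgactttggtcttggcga
The half-site began 74 bases before the start in Hc, 107 in C8a, 206 in C8b and 112 in Vtn, and it overlapped no match of the other motifs searched. RefSeq promoters were at hand for 25 of the listed genes. The same letters were found in 4 of the 9 genes with a peak at E14.5 that have a promoter in the table, in 2 of 11 other genes measured over the stages (C1ra and Cfp), and in 6.43% of all 32851 promoters of that length. The C/EBP letters TTGCNNAA were in 2 of the 9 (C3 and C9), 1 of the 11 (C1s1) and 9.56% of all promoters. The STAT element GAS (TTCNNNGAA) was in 2 of the 9 (C8a and Masp2), 1 of the 11 (Colec11) and 7.02% of all, and the interferon element ISRE (core letters GAAANNGAA) in 0 of the 9, 2 of the 11 (Cd59a and Colec11) and 7.13% of all, its match in Colec11 overlapping the GAS match. A listed gene was counted if any of its promoters held the letters, while the share of all was counted per promoter, so these measures differ. Letters in a window are a description and do not show that a factor binds.

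Among the lectin pathway genes, the collectins Colec10 and Colec11 separated liver-derived cells from skin and bone marrow cells more widely than any of the other listed genes tested. Colec10 encodes collectin liver 1, which binds sugars on microbes and, together with Colec11, forms mixed complexes in plasma. Its level was 4.94, 5.33, 6.37, 6.79 and 5.23 over the stages and 7.46 in adult HSC, against -5.24 in MEF and -8.59 in MSC, where it was not well above background. Colec11, which encodes collectin kidney 1, had levels of 4.72, 4.86, 5.97, 6.53 and 5.61 over the stages and 8.09 in adult HSC, against -4.75 in MEF and -5.66 in MSC. For both genes each liver array lay far above both other arrays, and the lowest liver array was that of E11.5. In limma's fit of the 6 liver-derived arrays against MEF and MSC, Colec10 was higher by 12.93 ± 0.98 (log2 difference ± SE, adjusted p = 0.00193), which is at least 3905-fold with MSC at its detection limit. The log2 difference was 8.30 with normexp and 11.26 without MSC. Colec11 was higher by 11.17 ± 0.86 (adjusted p = 0.00193), or 2297-fold, and by 8.09 with normexp.

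Masp1, a protease that rides on collectins and ficolins, was the third gene called in that comparison. It was at -5.49 (not well above background), -4.60, -2.61, -3.59 and -4.16 over the stages and -3.99 in adult HSC, against -8.36 in MEF and -8.21 in MSC, both not well above background. The difference was 4.21 ± 0.67 (adjusted p = 0.0307, limma), at least 5.19-fold. Its adjusted p was 0.107 with the slide as a block, 0.112 without the MSC array, 0.067 without E13.5, 0.0819 without E17.5 and 0.0631 without P1. It was 0.0594 with quantile normalization and 0.116 with levels set at no less than the detection limit, where the difference was 2.40, and normexp gave 1.19 (adjusted p = 0.515).

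Over all listed genes, 3 of 32 tested were called higher in liver-derived cells and 0 lower, against 0.841% of all 16519 genes higher and 0.732% lower. At an unadjusted p under 0.05 the counts were 6 higher and 1 lower of 32, where 10.5% of all genes were higher and 9.20% lower. The 6 liver arrays lay wholly above MEF and MSC for 12 of the 32, where 12.6% of all genes did, and wholly below for 1, C3ar1, where 10.8% did. Of those 12, all 6 liver arrays were well above background for 6 (Colec10, Colec11, C3, C8g, Cfi and Vtn), and the ranks of the others and of C3ar1 partly order undetected levels. The difference was above 0 for 25 of 32, with a median of 2.74 against 0.01 over all genes. The fit has no replicate of any group, so its spread is that between stages and cell types. It depended on single arrays. Without MSC the median difference of the listed genes was 2.05, against -0.02 over all genes, and without MEF it was 3.63, against 0.06. Without E11.5, 4 of 32 were called, adding Vtn to the 3 above, where 1.15% of all genes were called. Within slide 2 alone the count was 0, as it was over all genes. The differences there were 13.25 for Colec10 (adjusted p = 0.414, limma) and 12.05 for Colec11 (adjusted p = 0.366, limma).

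**Figure D2:**
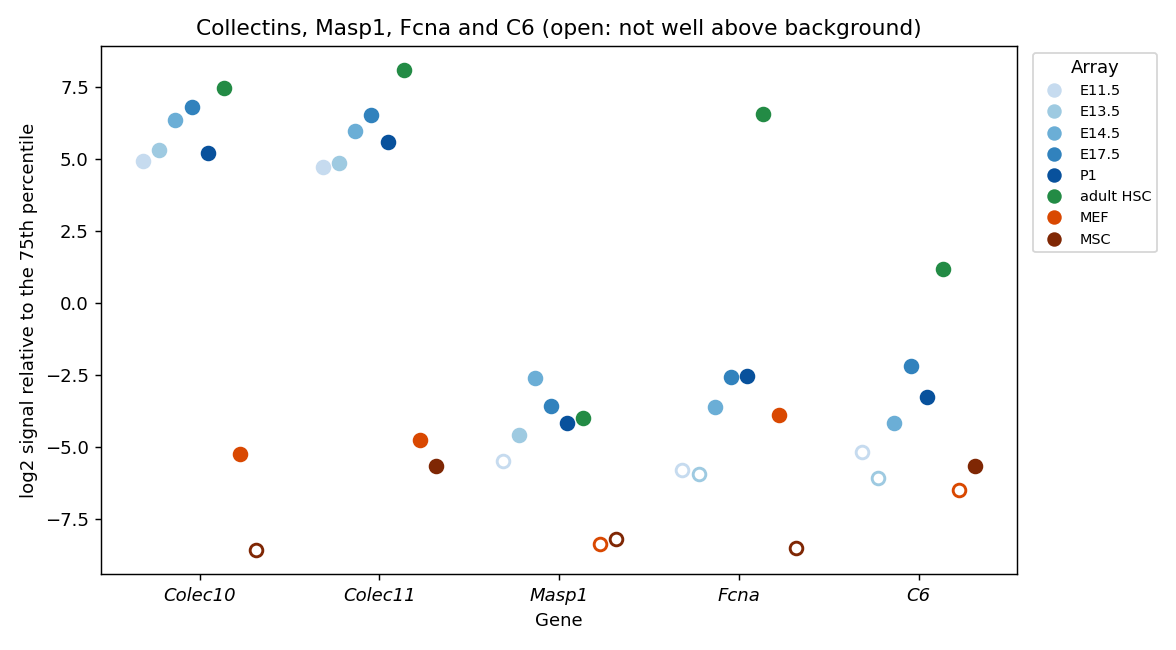
Level (log2 signal relative to the array's 75th percentile, vertical axis) of Colec10, Colec11, Masp1, Fcna and the terminal gene C6. Genes run along the horizontal axis and arrays differ in colour, 1 point per array, open where the probe was not well above background. Colec10 and Colec11 lie above 4 on all 6 liver arrays and below -4 in MEF and MSC, while Fcna lies above 0 only in adult HSC.

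Fcna and Colec12 set adult HSC apart from the newborn cells, in opposite directions. Fcna encodes ficolin A, a plasma lectin that binds acetylated sugars. It was at -5.78 and -5.94 at E11.5 and E13.5, both not well above background, then -3.63, -2.56 and -2.54, and it reached 6.55 in adult HSC, against -3.89 in MEF and -8.52 (not well above background) in MSC. Adult HSC thus lay 543-fold above P1, and above every other array. Colec12 encodes a membrane scavenger receptor of the collectin family. It was at -5.01 in adult HSC, below all other arrays, which stood at -3.08, -2.67, -3.13, -1.71 and -0.90 over the stages, -0.59 in MEF and -1.60 in MSC, and adult HSC lay 17.3-fold below P1.

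The mannose-binding lectins and Masp2 followed another course, with their highest stage at E14.5. Mbl1 was well above background at E13.5 (-3.85) and E14.5 (-0.98) only, so that E14.5 lay at least 20.8-fold above E11.5, with a log2 difference of 1.75 with normexp. Mbl2 was at -2.14 at E14.5, against -7.08 and -5.93 at E11.5 and E13.5, both not well above background, and it was at -5.39 at E17.5, -3.54 at P1 and -5.24 in adult HSC. Masp2, the protease that cuts C4 and C2, was at -4.72, -1.77, 1.26, -3.50 and -4.25 over the stages, -5.91 in adult HSC, -5.45 in MEF and -1.75 in MSC. Its other probe for the same transcript also peaked at E14.5 (-0.09), but disagreed outside the stages, with -3.16 in adult HSC and -8.35 (not well above background) in MEF. A probe for another transcript was above background at E14.5 only.

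Among the classical pathway genes, the proteases C1ra and C1s1 stood higher at each later stage, and C2 and C4b were highest of the stages at P1. C1ra and C1s1, neighbours on chromosome 6, encode the proteases carried by C1q. C1ra was at -4.44, -1.47, 0.71, 1.83 and 2.72 over the stages and 4.86 in adult HSC, against -0.64 in MEF and -2.11 in MSC. C1s1 was at -6.48 (not well above background), -1.31, 1.05, 1.20 and 2.45 over the stages and 4.49 in adult HSC, against -1.70 in MEF and -4.06 in MSC. Each stage lay above the one before it for both genes, and adult HSC lay above all stages. These were 2 of the 30 genes measured over the stages, and 3.40% of all genes had such a course. None stood lower at each stage than at the one before, where 6.59% of all genes did. C1rb and C1s2, close copies of the same genes, had the same course, with levels of -0.43 and 2.14 at P1, against -6.18 and -5.12 at E11.5, both not well above background, and near-identical copies may share signal on these probes.

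C2 and C4b encode the proteins that C1s and MASP-2 cut to form the C3 convertase. C2 was at -4.69, -0.40, 2.25, 1.5 and 4.13 over the stages and 5.46 in adult HSC, against 0.51 in MEF and -5.61 in MSC. C4b was at -4.91, -2.01, 0.04, 0.03 and 3.03 over the stages and 4.41 in adult HSC, against -0.95 in MEF and -3.22 in MSC. Both were highest in adult HSC and lowest of the liver arrays at E11.5. Its copy C4a is not analysed here, and signal of both genes may not be separated by this probe. P1 lay 144-fold above E11.5 for C1ra, at least 224-fold for C1s1, 451-fold for C2 and 245-fold for C4b, from 1 array a side. With normexp the log2 differences were 4.74 for C1ra, 4.25 for C1s1, 5.88 for C2 and 5.16 for C4b.

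C1qa, C1qb and C1qc encode the chains of C1q and lie next to each other on chromosome 4. On these arrays all 3 had their highest level in MEF. C1qa was at -5.10 at P1 and -4.40 in adult HSC, against 1.6 in MEF, and was not well above background on the 5 other arrays. C1qb was at -4.38, -4.49, -4.25, -3.81 and -3.29 over the stages and -3.45 in adult HSC, against 1.26 in MEF and -3.95 in MSC. C1qc was at -4.23 at E17.5, -4.09 at P1 and -3.74 in adult HSC, against 2.08 in MEF, with no other array well above background. MEF lay far above every other array for each chain. Adult HSC lay 63.6-fold below MEF for C1qa, 26.2-fold for C1qb and 56.3-fold for C1qc, and the log2 differences with normexp were -3.78, -3.00 and -4.07.

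The receptors of the peptides C3a and C5a, C3ar1 and C5ar1, were well above background in MEF only, at -0.75 and -0.92, and lay at least 36.6-fold and at least 32.6-fold lower in adult HSC than in MEF. With normexp the log2 differences were -1.75 and -1.79. The MEF array also held macrophage genes, with Csf1r, the receptor of a macrophage growth factor, at 3.18, Fcer1g at 2.71, Tyrobp at 2.20 and Adgre1, which encodes F4/80, at -0.51. Lyz1, Lyz2, Spi1 and Ptprc of the same marker list were also highest in MEF. Itgam, Cd14, Marco, Cd5l, Vsig4 and Clec4f of that list were not. Itgam was at 1.61 in MEF and 3.26 at P1, and Cd14 at -1.11 in MEF and 0.19 in MSC. Marco was at -2.44 in MEF and -1.91 at P1, and Cd5l at -4.66 in MEF and -2.27 in adult HSC. The part of such cells in the MEF levels of C1q and of the receptors was not tested.

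**Figure D3:**
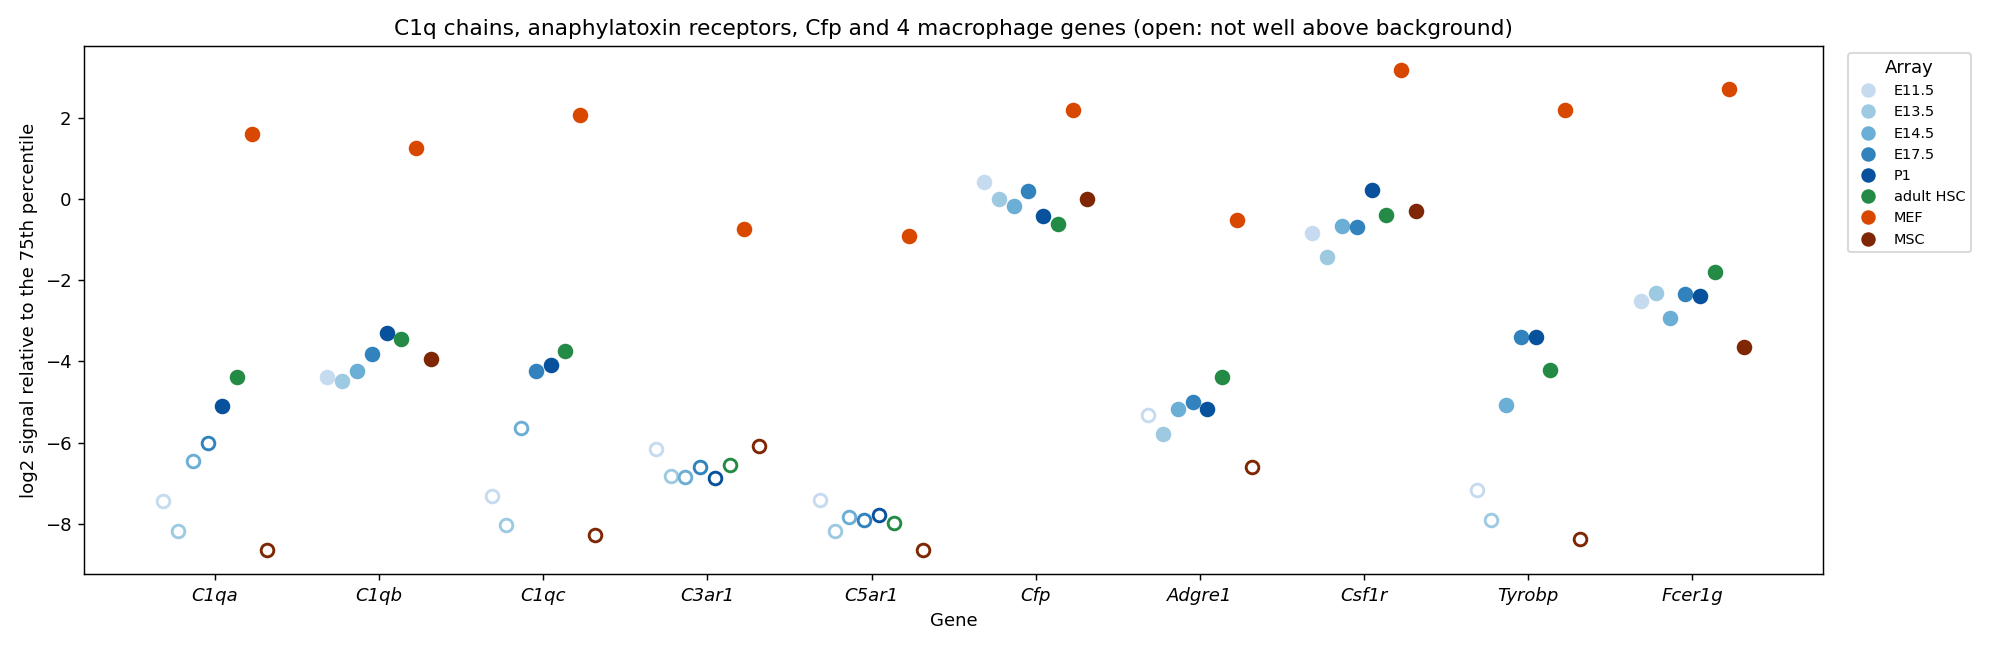
Level (log2 signal relative to the array's 75th percentile) of the C1q chains, the 2 receptors, Cfp and 4 macrophage genes on each array, 1 point per array, open where not well above background. C1qa, C1qb and C1qc lie between 1.26 and 2.08 in MEF and below -3 on all other arrays.

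The change per stage, with the 5 stages in order, was fitted with limma as a straight line. It called 0 of 30 listed genes at an adjusted p under 0.05, as it called 0 of all 15536 genes tested (percent called 0 in both directions). At an unadjusted p under 0.05, 12 of 30 had a positive slope and 0 a negative one, where 12.5% of all genes had a positive and 15.4% a negative one. All 7 classical pathway genes were among the 12, but C1qa was well above background at 1 stage only and C1qc at 2. The slopes of C1qa and C1qc thus rest largely on undetected levels. The slope was 1.76 ± 0.21 per stage for C1ra (± SE, adjusted p = 0.0597), 1.79 ± 0.23 for C4b (adjusted p = 0.063), 1.95 ± 0.38 for C2 (adjusted p = 0.0794) and 2.04 ± 0.44 for C1s1 (adjusted p = 0.0859). Without the E11.5 array the slopes were 1.37 for C1ra, 1.51 for C4b, 1.28 for C2 and 1.14 for C1s1, and the median slope of the listed genes was 0.02, against 0.45 with it. Those of the C1q chains were smaller, at 0.29 ± 0.08 for C1qb, 0.69 ± 0.16 for C1qa and 1.03 ± 0.22 for C1qc, and with normexp they were -0.20, -0.28 and -0.20. The other 5 were Serping1, Clu, Fcna, Colec12 and C6. When the same fit was limited to genes above background on all 5 arrays, C1ra, C4b and Serping1 passed the threshold, with 5.01% of all genes.

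The inhibitors Serping1 and Clu ran alongside the classical genes. Serping1 encodes the C1 inhibitor, which inactivates C1r, C1s and the MASPs. It was at 1.89, 2.81, 4.16, 5.67 and 5.45 over the stages and 7.26 in adult HSC, against 2.37 in MEF and -4.27 in MSC. Clu encodes clusterin, a chaperone that binds terminal complexes in fluid, and was at 0.82, 2.26, 3.48, 2.76 and 5.07 over the stages and 6.67 in adult HSC, against 3.06 in MEF and -1.34 in MSC. Both were highest in adult HSC, and MEF lay above the E11.5 array for both. Their slopes were 1.0 ± 0.14 (adjusted p = 0.0669) and 0.90 ± 0.20 (adjusted p = 0.0878).

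Genes that move with interferon were set beside these. Of 14 interferon response genes 0 were called by slope at an adjusted p under 0.05. At an unadjusted p under 0.05, 13 had a positive slope, where 12.5% of all genes did. The median slope of the 14 was 1.05. Their median level was -4.17, -2.51, 0.27, 0.86 and 0.35 over the stages and 2.89 in adult HSC, against 0.58 in MEF and -2.76 in MSC. The part of interferon in the levels of the classical genes was not tested.

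**Figure D4:**
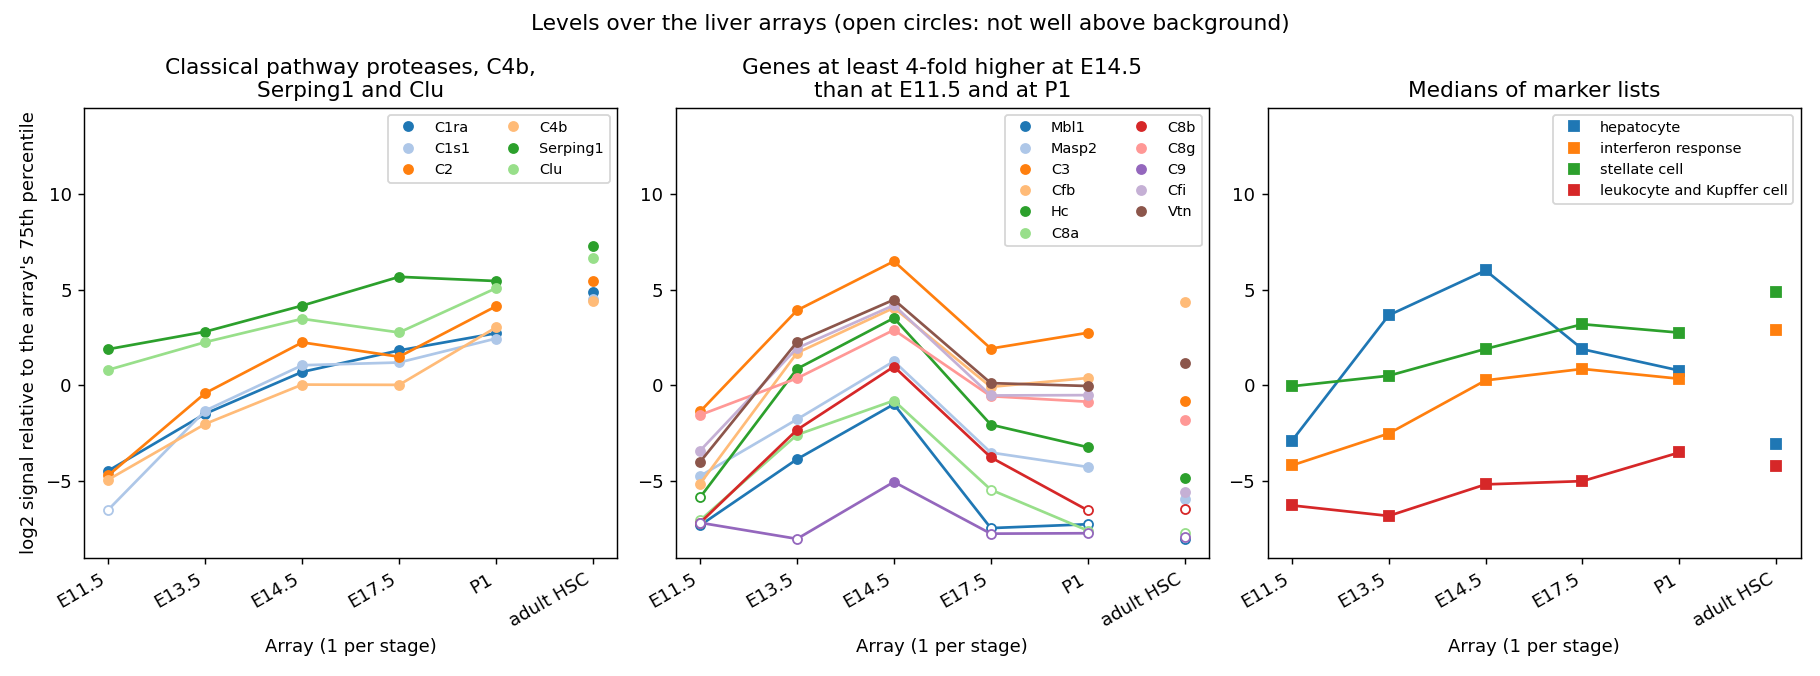
Levels over the 5 stages and in adult HSC (log2 signal relative to the array's 75th percentile, 1 array per point, open where not well above background), for classical genes with Serping1 and Clu (left), for the 11 genes at least 4-fold higher at E14.5 than at E11.5 and at P1 (middle), and as medians of marker lists (right). C1ra and C1s1 stand higher at each stage, the 11 genes stand highest at E14.5, as does the hepatocyte marker median at 6.0, and Cfb alone of the 11 is higher in adult HSC than at E14.5.

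Most terminal genes, C3, Cfb and the regulators Cfi and Vtn took another course over the stages, low at E11.5, highest at E14.5 and lower again by P1. Of 30 listed genes, 14 had their highest stage at E14.5, where 14.6% of all genes did, 10 had it at P1 (24.8% of all genes), 4 at E17.5 (15.8%), 1 at E13.5 (14.7%) and 1 at E11.5 (30.2%). A level at E14.5 at least 4-fold above both E11.5 and P1 was found for 11 of 30, where 2.56% of all genes had one. This measure was chosen after the values were seen and has no test. The 11 were Mbl1, Masp2, C3, Cfb, Hc, C8a, C8b, C8g, C9, Cfi and Vtn. With levels below background raised to the detection limit 10 remained, without C9.

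Hc encodes C5, whose cleavage starts the terminal complex. It was at -5.84 (not well above background), 0.87, 3.52, -2.05 and -3.22 over the stages, -4.81 in adult HSC, -5.35 in MEF and -5.86 in MSC. E14.5 lay at least 470-fold above E11.5, and P1 lay 107-fold below E14.5, with log2 differences of 5.5 and -5.19 with normexp. C8a and C8b, neighbours on chromosome 4, encode chains of C8, which inserts into the membrane. C8b was at -2.32, 0.98 and -3.75 at E13.5, E14.5 and E17.5 and not well above background on any other array. C8a was well above background at E13.5 (-2.58) and E14.5 (-0.79) only. C8g, the third chain, was detected on all arrays, at -1.54, 0.37, 2.90, -0.56 and -0.85 over the stages, -1.82 in adult HSC, -2.71 in MEF and -2.44 in MSC. C9, which forms the pore, was above background at E14.5 alone, at -5.03. For each of these 5 genes E14.5 was the highest of all 8 arrays.

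C6, the remaining terminal gene measured, did not peak at E14.5. It was not well above background at E11.5 (-5.19) and E13.5 (-6.09), then stood at -4.18, -2.17 and -3.25, and it was highest in adult HSC at 1.16, against -6.48 (not well above background) in MEF and -5.67 in MSC. Adult HSC lay 21.3-fold above P1 and at least 179-fold above MEF, with log2 differences of 2.91 and 3.74 with normexp.

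C3, the protein that all routes cleave, was at -1.36, 3.92, 6.48, 1.92 and 2.75 over the stages and -0.79 in adult HSC, against -1.59 in MEF and -2.13 in MSC. E14.5 lay 229-fold above E11.5, and adult HSC 11.6-fold below P1. The other C3 probe gave 83.2-fold and 7.11-fold. Cfb, factor B, supplies the protease of the alternative convertase and lies next to C2 on chromosome 17. It was at -5.13, 1.70, 4.05, -0.07 and 0.39 over the stages and 4.38 in adult HSC, against -2.46 in MEF and -6.85 (not well above background) in MSC. So Cfb had its peak at E14.5 like C3, 577-fold above E11.5 (log2 difference 6.04 with normexp). Its level in adult HSC was slightly above that peak and 15.9-fold above P1. In adult HSC the hepatocyte marker median was -3.04, with single markers from -7.82 (Afp) to 5.65 (Trf). The part of hepatocyte RNA in the adult level of Cfb was not tested. Cfp, properdin, which holds the alternative convertase together, varied little, at 0.42, 0.00, -0.17, 0.19 and -0.41 over the stages, -0.63 in adult HSC and 0.00 in MSC, and was highest in MEF at 2.19.

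Among the regulators, Cfi and Vtn shared the E14.5 peak. Cfi encodes factor I, the protease that cuts C3b and C4b. It was at -3.40, 1.95, 4.19, -0.52 and -0.51 over the stages and -5.58 in adult HSC, and it was not well above background in MEF or MSC. Adult HSC lay 33.6-fold below P1. Vtn encodes vitronectin, which blocks insertion of the terminal complex, and was at -3.99, 2.27, 4.47, 0.12 and -0.03 over the stages and 1.19 in adult HSC, against -5.56 in MEF and -8.43 (not well above background) in MSC. In the fit against MEF and MSC the differences were 7.82 ± 2.32 for Cfi (adjusted p = 0.15, limma, and at least 55.8-fold) and 7.67 ± 1.95 for Vtn (adjusted p = 0.113, limma), so neither was called although each liver array lay above both others. The difference for Cfi was 3.03 with normexp and 5.43 with slide as a block, and that for Vtn was 3.56 with normexp.

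Cd55 and Cd59a encode membrane inhibitors that protect the cell's own surface, and neither followed the secreted genes. Cd55, which speeds the decay of convertases, was at 0.06, 0.40, -1.22, -0.97 and -0.05 over the stages and -3.27 in adult HSC, against -1.09 in MEF and -8.82 (not well above background) in MSC, with adult HSC 9.28-fold below P1. Cd59a, which blocks C9 in the membrane, lay between -1.92 in MSC and -0.58 at E14.5 on all 8 arrays.

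The hepatocyte markers had the same highest stage as these genes. Of 14 hepatocyte markers measured over the stages 13 were at least 4-fold higher at E14.5 than at both E11.5 and P1, where 2.56% of all genes were. The part of hepatocyte RNA in the E14.5 levels was not tested. The stellate marker median was 1.91 at E14.5 and higher at E17.5, at 3.19.

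Between single pairs of arrays no test is possible, and genes at least 4-fold apart were counted. P1 was higher than E11.5 for 16 of 26 listed genes above background on either array and lower for 0, where 9.75% of all genes were higher and 4.19% lower. With levels below background at the detection limit 13 were higher, where 7.41% of all genes were, and 0 lower, where 3.29% were. The median difference was 2.76, against -0.08 over all genes. E11.5 was the array with the low spike-in slope, and P1 lay on the other slide. E17.5, on the same slide as E11.5, was higher than E11.5 for 14 of 26 and lower for 0, with 7.38% of all genes higher and 5.01% lower. E14.5 was higher than E11.5 for 20 of 28 and lower for 0, with 6.49% of all genes higher and 3.88% lower. These comparisons share the E11.5 array. P1 was higher than E14.5 for 3 of 30 (Colec12, C1ra and C4b), where 7.52% of all genes were, and lower for 11, where 4.27% were. Against E13.5 in place of E11.5, P1 was higher for 11 of 29 listed genes and lower for 7, where 8.55% of all genes were higher and 3.31% lower, and the median difference was 0.44. The 7 were Mbl1, Masp2, Hc, C8a, C8b, Cfi and Vtn. Of genes compared in both pairs, the sign at P1 turned for 8, namely C3 (-1.17), Cfb (-1.31), Hc (-4.09), Cfi (-2.45), Vtn (-2.29), Masp2 (-2.49), C8g (-1.22) and Colec10 (-0.099), and it did not for C1ra, C1s1, C2 and C4b.

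Adult HSC was at least 4-fold higher than P1 for 7 of 26 listed genes, where 5.19% of all genes were, and at least 4-fold lower for 4, where 16.0% were. The 7 were Fcna, C6 and Cfb with the folds given above, Colec11 (5.61-fold), Colec10 (4.69-fold), C1ra (4.40-fold, and 3.24-fold by its other probe) and C1s1 (4.12-fold). The 4 were Cfi, Colec12, C3 and Cd55, and with normexp the log2 differences were -2.32 for Cfi and -1.80 for Colec12. The highest of all 8 arrays was adult HSC for Colec10, Colec11, Fcna, C1ra, C1s1, C2, C4b, Cfb, C6, Serping1 and Clu. When arrays were scaled on their median, the median of all genes moved to 0.72 in this pair, and 12 of the listed genes were then higher and 4 lower, where 10.9% of all genes were higher and 11.9% lower. The stellate marker median was 4.88 in adult HSC, against 2.76 at P1, and the hepatocyte marker median -3.04, against 0.78. That of 8 portal fibroblast markers was -4.34 in adult HSC, against 4.0 at P1, and that of 9 mesothelial markers -7.77, against -1.25. The part of other cells in these differences was not tested.

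Between the non-liver arrays, MEF was at least 4-fold higher than MSC for 16 of 25 listed genes, where 15.8% of all genes were, and lower for 1, Masp2, where 3.06% were. Serping1 lay 99.5-fold higher in MEF, C2 69.4-fold, C1qb 37.0-fold and Clu 21.1-fold, and C1qc at least 405-fold and C1qa at least 290-fold. The log2 differences with normexp were 4.75 for Serping1, 3.13 for C2, 3.44 for C1qb, 4.88 for C1qc and 4.43 for C1qa. MSC had the fewest listed genes above background, 16 of 34, against 18 at E11.5, 24 at E13.5 and in MEF, 28 at E14.5 and 26 at E17.5, P1 and in adult HSC.

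Other genes of the pathway were read from a list of 27, of which 25 had a named probe. In the fit against MEF and MSC 0 of 24 were called, with a median difference of 1.20, and over the stages 0 of 23 were called. At an unadjusted p under 0.05, 7 slopes were positive (among them Cd46, C5ar2, C1rb, C1s2 and Sftpd) of 23 and 1 negative (C1qbp), where 12.5% of all genes were positive and 15.4% negative. The E14.5 peak was found for 4 of 23, where 2.56% of all genes had it, among them C4bp, which binds C4b, and Cpn1 and Cpn2, the subunits of the carboxypeptidase that inactivates C3a and C5a.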

How the data were processed

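Agilent Feature Extraction 11.5.1.1 made the scanner files, per the file headers. Their deposited intensity values are background-subtracted, spatially detrended spot signals without normalization between arrays, and other deposited columns hold flags. The deposited log2 table of the authors follows the same signals scaled to the 75th percentile, without centring per gene (column medians -4.48 to -3.55). Its values differ from those used here by an array median of -0.102 to -0.154, and it was used as an alternative.

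Each level is the processed signal over the 75th percentile of the array's non-control spots, as log2. Outlier spots were dropped and spots of a probe averaged. The files pair probes with accessions, and RefSeq named 67.4% of 39429 probes. A gene took its probe with the highest mean over 8 arrays. The array was designed on another build, so positions are given only for the RefSeq promoters and not for genes or probes.

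A gene had to be well above background on 1 or more of the arrays in a fit, made with limma 3.58.1 in R 4.3.3 (Benjamini-Hochberg over all genes, adjusted p under 0.05). The fits were also run on simulated data with independent noise drawn from limma's own variance estimate. That setting lacks the differences between stages, sorts and slides, so it does not show how the fits perform on these arrays. Pairs of arrays have no test, and the detection limit is the lowest signal well above background on the array. Normexp used median spot brightness with an offset of 50. All 35 listed genes were named by rule. The genes, the marker and pathway lists and the comparisons were chosen with earlier results of these data known, and the E14.5 measure after its values were seen. Some genes of the pathway list are not reported here.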

Additional observations from a re-analysis of the deposited data

Results flagged for a closer look

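Each listed gene above background on a liver-derived array was checked for 1 array far from the other 5 among the 6 liver-derived arrays. Of 30 genes checked, 2 stood out. Chance alone would mark about 1 in 20 such groups.

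Fcna had a level of 6.55 on the adult HSC array, and the nearest liver-derived array was P1 at -2.54, a gap of 0.727 of the whole range. C9 had a level of -5.03 on the E14.5 array, and the nearest was E11.5 at -7.16, which was not well above background, a gap of 0.717 of the range. All 5 other liver-derived levels of C9 were not well above background, so its gap and range rest on undetected levels, and at the detection limit E14.5 lay only 1.3-fold above E11.5. The cause was not tested for either gene.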

How the results depend on the processing

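The results rest on 1 array per group, and signal over background limits the dim genes. No paired analysis was possible because no group has a second array and the labels give no shared replicate numbers. The count of genes called between liver-derived cells and MEF and MSC was 1 instead of 3 when a gene had to be above background on every array (Colec11), which leaves fewer genes tested, and 0 within slide 2 alone, which leaves fewer arrays. Leaving out each liver-derived array in turn gave 2 to 4, where 0.51% to 3.21% of all genes were called. Leaving out MEF or MSC moved the listed genes called further. That leaves a single array on the non-liver side, so no count of listed genes is given for it. The difference of C3ar1, lower in liver-derived cells, ran from -5.89 to -0.23 over the alternatives. The count of stage slopes was 3 instead of 0 with genes above background on every array, and 0 to 0 with each array left out. P1 was at least 4-fold from E11.5 for 9 genes instead of 16 with normexp, and for 10 with genes above background on every array. For P1 minus E13.5, without the E11.5 array, it was 18 in both directions, with a median of 0.44 instead of 2.76. The count between adult HSC and P1 was 11 and ran from 9 (normexp) to 16 (median scaling), and the count with an E14.5 peak was 11 and ran from 8 (normexp) to 12 (E14.5 against E11.5 and E17.5, chosen after seeing the data).

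Normexp reversed the slopes of Fcna (-0.059), C1qa (-0.28), C1qb (-0.20), C1qc (-0.20) and C6 (-0.11), and the P1 minus E11.5 difference of C1qa (-0.17). The cause was not tested. P1 minus E13.5, chosen after seeing the data, was negative for C3 (-1.17), Cfb (-1.31), Hc (-4.09), Cfi (-2.45) and Vtn (-2.29). Over all genes the liver comparison called 260, against 49 with normexp, 74 with slide as a block, 0 within slide 2, 1282 without MEF, 526 without adult HSC, 93 without E13.5, 90 without E14.5, 84 without E17.5, 167 without P1 and 157 with genes above background on every array. The slope called 0 of all genes, against 106 with quantile normalization and 636 with genes above background on every array. P1 and E11.5 were at least 4-fold apart for 2083 of all genes, against 594 with normexp and 1126 with genes above background on every array, and adult HSC and P1 for 3164, against 1043 with normexp and 1496 with genes above background on every array. Of values for single genes under an alternative, 484 kept direction and side of the threshold or moved little, 17 moved, 11 reversed, 6 newly passed and 11 no longer passed.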
